A study of Mus musculus with 16 samples.

Results

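The thin filament of striated muscle is switched on by calcium through the troponin complex and tropomyosin. Troponin C binds calcium, troponin I holds the complex in the inhibited state, and troponin T anchors the complex to tropomyosin, the coiled-coil protein that lies along actin and covers the sites to which myosin binds. Separate genes encode the slow, fast and cardiac forms of the troponins, and a muscle precursor starts to transcribe the sarcomeric forms as it leaves the cell cycle and fuses into a myotube. Tropomyosin genes also give rise, by alternative promoters and splicing, to cytoskeletal forms that are made in nearly all cells.

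The mRNAs of 10 such genes were followed in C2C12, a mouse skeletal myoblast line able to fuse into myotubes in culture. The genes were taken by symbol from the 31053 rows of the deposited table, namely 7 troponin genes (Tnnc1, Tnnc2, Tnni1, Tnni2, Tnnt1, Tnnt2 and Tnnt3) and 3 tropomyosin genes (Tpm1, Tpm2 and Tpm4). All 10 were found, each in 1 row, and all 10 passed the minimum set for testing. The 4 groups, with 4 samples each, were WT cells kept as undifferentiated myoblasts (titles WT_UNDIFF), WT cells differentiated into myotubes (WT_DIFF), and Fam134b knockout cells at the same stages (KO_UNDIFF and KO_DIFF). They are called WT or Fam134b KO myoblasts and myotubes here. Every group was grown in DMEM with 10% FBS, in which the cells differentiate without a change of serum, and the labels give no day. Fam134b encodes a receptor for autophagy of the endoplasmic reticulum. The study made the knockout by lentiviral delivery of Cas9 and guide RNAs, with drug selection. Whether the line is 1 clone is not given in the sources used here. There was 1 line per genotype, so that the loss of Fam134b and any other difference between the lines cannot be told apart. The labels call the samples biological replicates without naming separate cultures, and p-values measure only the spread between these samples.

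Between 1484750 and 3287461 reads per sample were counted on genes, and Fam134b KO myotube replicates 2 and 4 were the shallowest, with 1790524 and 1484750 reads. They also lay furthest from their group mean over all genes tested, with root mean square deviations of 0.691 and 0.616 on the log2 scale against 0.260 to 0.491 for the other 14 samples. A level is given as a normalized count, the number of reads on a gene divided by a factor of the sample. Fam134b itself had normalized counts of 149.7 to 251 (myoblasts) and 146 to 287 (myotubes) in WT cells, and of 23.4 to 35.6 (myoblasts) and 28.0 to 56.9 (myotubes) in the knockout cells, with no overlap between genotypes. The fall was -2.86 ± 0.26 (SE, adjusted p = 2.95e-08) on the log2 scale in myoblasts and -2.46 ± 0.26 (SE, adjusted p = 9.85e-07) in myotubes.

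The labelled stages were checked against marker genes. The summed normalized count of 10 myotube markers (among them Myog, Myh3 and Ckm) went from 1632 to 2539 (myoblasts) up to 21361 to 32973 (myotubes) in WT cells, and from 29.2 to 40.7 up to 9799 to 12613 in Fam134b KO cells. WT myoblasts thus held myotube transcripts, and Fam134b KO myoblasts had reads of 7 of the 10. The 6 myoblast markers summed to 1165 to 1985, 3749 to 5587, 340.3 to 459.8 and 1566 to 2390 in the same order (WT myoblasts and myotubes, then Fam134b KO), and the 5 proliferation genes to 3486 to 4225, 1932 to 3111, 2698 to 4578 and 774.8 to 1293. The myoblast sum was thus higher in myotubes of either genotype and did not mark the myoblast stage. Between myoblasts, 4 of its 5 genes tested were called lower in Fam134b KO. The other, Myf5, was not called (114 ± 5.09 against 71.1 ± 10.0 in WT, SD, n = 4, adjusted p = 0.0955 in the limma fit). Of other cell types, 5 fibroblast or matrix genes summed to 2678 to 5512, 12366 to 22001, 3719 to 13974 and 17045 to 35814, and 6 smooth muscle genes, which myoblasts also express, to 5852 to 14207 over all samples. Adipocyte genes (4 listed) summed to at most 0.964 with Adipoq, Plin1 and Lep at 0, and 4 osteoblast genes to 26.3 to 150.1 with Alpl at 0. Of 7 cardiac genes, which summed to 45.3 to 100.7, Myl7 and Nppa were at 0 in all 16 samples, and only Nkx2-5 and Gata4 could be tested. Nkx2-5, named after its values were seen, was higher in Fam134b KO than in WT myoblasts (57.0 ± 8.99 against 3.24 ± 2.12, SD, n = 4, adjusted p = 7.16e-06). Gata4 had a lower mean in Fam134b KO myoblasts and was not called (30.8 ± 6.80 against 44.8 ± 2.44, adjusted p = 0.133 in the limma fit). The part of these transcripts in the results on troponins and tropomyosins was not tested. In bulk RNA, fewer cells that have started to differentiate and less mRNA per cell cannot be told apart.

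The genes lie on 7 chromosomes of the mouse genome (GRCm38, GENCODE M21 annotation). Slow Tnni1 (chr1:135779434-135810989, + strand) and cardiac Tnnt2 (chr1:135836354-135852260, + strand) are neighbours on chromosome 1, 25364 bases apart with Lad1 between them. Fast Tnni2 (chr7:142441808-142444410, + strand) and fast Tnnt3 (chr7:142498836-142516009, + strand) are neighbours on chromosome 7, 54425 bases apart with Lsp1 between them. On the same chromosome, slow Tnnt1 (chr7:4504570-4516382, - strand) lies 1922 bases from cardiac Tnni3. The remaining genes stand apart from each other, with Tnnc1 at chr14:31208312-31211729 (+ strand), Tnnc2 at chr2:164777161-164779967 (- strand), Tpm1 at chr9:67022590-67049406 (- strand), Tpm2 at chr4:43514711-43523765 (- strand) and Tpm4 at chr8:72134975-72153142 (+ strand). Tnnc1, Tnnc2, Tnnt3 and Tpm4 overlap a gene on the opposite strand (Nisch, Ube2c, Prr33, and Gm26586 and Gm16091), and strand-specific counting is not given in the sources used here. Of the last 500 bases of its transcripts, read in stretches of 31 bases, Tpm4 shares 10.4% with Tpm3 and its copies, so that reads of Tpm4 and Tpm3 may be split between them. For the other 9 genes this share was 0% to 6.42%.

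Promoter sequences of RefSeq (build GRCm38.p6; 250 bases before and 50 after a transcription start) were held for 8 of the 10 genes, as 10 promoters. Tnni2 and Tnnt3 were not among them. The 4 promoters below are shown because their genes mark the range of the results, namely Tnnc2 with 3 reads or fewer in every Fam134b KO myoblast sample, slow Tnnt1, cardiac Tnnt2 with the smallest fall among the troponins, and Tpm4, which moved against the troponins on differentiation. Capitals mark E-boxes (CANNTG, the element bound by MyoD and myogenin), the MCAT element (CATTCC, bound by TEAD factors) and the TATA box (TATAAA), searched on both strands.
Tnnc2 promoter (chr2:164779685-164779984, - strand): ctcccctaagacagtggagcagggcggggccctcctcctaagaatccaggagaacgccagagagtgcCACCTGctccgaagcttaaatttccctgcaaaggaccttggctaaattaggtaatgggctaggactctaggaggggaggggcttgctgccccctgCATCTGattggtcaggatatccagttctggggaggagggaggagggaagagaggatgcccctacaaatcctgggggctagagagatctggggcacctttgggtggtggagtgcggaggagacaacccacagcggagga
Tnnt1 promoter (chr7:4515926-4516225, - strand): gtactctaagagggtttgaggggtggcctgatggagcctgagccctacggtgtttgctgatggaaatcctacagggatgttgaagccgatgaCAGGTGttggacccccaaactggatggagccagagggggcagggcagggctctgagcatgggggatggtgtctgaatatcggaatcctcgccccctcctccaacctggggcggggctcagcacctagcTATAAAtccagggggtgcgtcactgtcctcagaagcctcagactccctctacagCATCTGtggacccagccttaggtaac
Tnnt2 promoter (chr1:135836084-135836383, + strand): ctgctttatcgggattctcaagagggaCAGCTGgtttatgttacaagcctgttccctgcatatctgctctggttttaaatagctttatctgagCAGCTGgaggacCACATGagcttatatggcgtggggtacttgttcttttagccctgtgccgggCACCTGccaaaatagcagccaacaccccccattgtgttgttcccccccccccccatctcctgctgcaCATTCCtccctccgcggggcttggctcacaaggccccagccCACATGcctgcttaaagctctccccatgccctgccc
Tpm4 promoter (chr8:72135038-72135337, + strand): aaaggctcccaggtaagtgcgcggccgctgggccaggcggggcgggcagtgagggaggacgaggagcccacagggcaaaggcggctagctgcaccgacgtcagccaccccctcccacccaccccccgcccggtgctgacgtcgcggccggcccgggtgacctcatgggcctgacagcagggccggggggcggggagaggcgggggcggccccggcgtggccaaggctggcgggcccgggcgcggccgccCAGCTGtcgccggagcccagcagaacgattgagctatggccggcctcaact

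The Tnnt2 promoter shown held 5 E-boxes, of which 2 had the core CAGCTG (223 and 157 bases before the start), and an MCAT element 27 bases before the start. A second Tnnt2 promoter (chr1:135836739-135837038, + strand) held 2 E-boxes, without the core CAGCTG and without an MCAT element. At least 4 E-boxes were found in 6.49% of all 32851 promoters of the same length, and at least 1 in 72.3%. Of the troponin promoters, 1 of Tnni1 held 4 E-boxes and the others 2 each, and Tnnc1 also held an MCAT element (CATTCC on the opposite strand), as did Tpm1. An MCAT element stood in 14.7% of all promoters. The Tnnt1 promoter was the 1 with the exact letters TATAAA, 30 bases before the start, a match found in 13.6% of all promoters. Variants of the TATA box were not searched, and the Tnnc1 promoter holds TATATAAG. The 3 tropomyosin promoters had 1 E-box each and a GC content of 66.3% to 76.0%, against 45.7% to 59.7% in the 7 troponin promoters. GC boxes (GGGCGG, not in capitals here) numbered 5 in Tpm4, 3 in Tpm2 and 1 each in Tpm1, Tnnc2 and Tnnt1, and 35.7% of all promoters held at least 1. Matches to MEF2 and CArG box elements were found in none of the 10, and in 3.19% and 1.63% of all promoters. The core CAGCTG, also counted as an E-box, had 1 match in each of the Tnni1 promoters and in those of Tpm2 and Tpm4. It was found in 16.3% of all promoters. A match describes letters only.

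Taken as a share of each library's reads on genes, the 7 troponin genes made up 0.171% ± 0.0121 (SD, n = 4) in WT myoblasts and 0.889% ± 0.164 in WT myotubes, against 0.00951% ± 0.00191 in Fam134b KO myoblasts and 0.255% ± 0.0463 in Fam134b KO myotubes. The order of the groups was the same in every sample, since the shares of no pair of groups overlapped. The 3 tropomyosin genes moved far less, with 0.265% ± 0.0164 and 0.409% ± 0.0479 in WT myoblasts and myotubes and 0.233% ± 0.0144 and 0.229% ± 0.0278 in Fam134b KO myoblasts and myotubes. The number of troponin reads per tropomyosin read was 0.650 ± 0.0684 and 2.17 ± 0.248 in WT and 0.0406 ± 0.00710 and 1.11 ± 0.0775 in Fam134b KO.

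**Figure D1:**
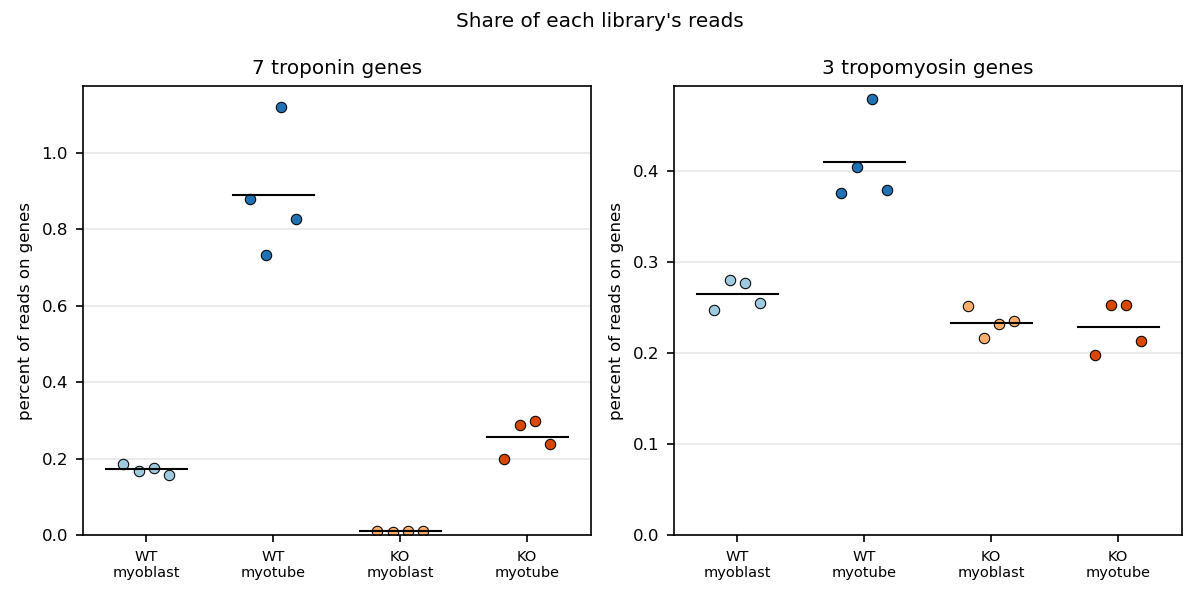
Percent of each library's reads on genes that fell on the 7 troponin genes (left) and the 3 tropomyosin genes (right), with points for the 4 samples of each group, lines for the group means and a linear axis from 0. Troponin shares lie near 0.00951% in Fam134b KO myoblasts and between 0.733% and 1.12% in WT myotubes, while the tropomyosin shares of all 16 samples lie between 0.197% and 0.479%.

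Tnnc1 encodes the slow and cardiac troponin C, the calcium sensor. Its normalized counts in replicates 1 to 4 were 308, 254, 293 and 256 in WT myoblasts and 3579, 2301, 4161 and 2446 in WT myotubes. They were 4.37, 7.47, 9.54 and 7.51 in Fam134b KO myoblasts (5, 9, 11 and 9 reads) and 609, 729.6, 1278 and 959 in Fam134b KO myotubes. No pair of groups overlapped, and the order from low to high was Fam134b KO myoblasts, WT myoblasts, Fam134b KO myotubes and WT myotubes. Tnnc2 encodes the fast skeletal troponin C. It had 305, 233, 210.2 and 229 in WT myoblasts and 4007, 4112, 5706 and 4638 in WT myotubes. In Fam134b KO it had 0, 0.83, 1.74 and 0.834 in myoblasts, which are 0, 1, 2 and 1 reads, and 993, 1507, 1416 and 1555 in myotubes. It was thus at or below 3 reads, the smallest level taken as detected, in all 4 samples of Fam134b KO myoblasts, and the groups had the same order as for Tnnc1 without overlap. Ube2c, the gene opposite to Tnnc2, had a mean log2 value of 9.58 in the same Fam134b KO myoblasts.

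Tnni1 encodes the slow skeletal inhibitory subunit. Its normalized counts were 414, 353, 279 and 315 in WT myoblasts and 4092, 2695, 4234 and 3429.9 in WT myotubes. They were 5.25, 0.83, 0.868 and 4.17 in Fam134b KO myoblasts (6, 1, 1 and 5 reads) and 996, 916, 1210.0 and 823 in Fam134b KO myotubes. Pooled over the 4 Fam134b KO myoblast samples, its 13 reads give a level of 2.77 with an exact Poisson 95% interval of 1.47 to 4.73, which covers counting error only. Tnni2, the fast skeletal inhibitory subunit, had 271, 222, 221 and 192 in WT myoblasts and 3329, 2428, 4278 and 3252 in WT myotubes. It had 4.37, 0.83, 6.07 and 2.50 in Fam134b KO myoblasts (5, 1, 7 and 3 reads) and 651, 988, 799.8 and 715 in Fam134b KO myotubes. Both genes followed the order of Tnnc1, with no overlap between any pair of groups. The cardiac Tnni3, a neighbour of Tnnt1 and outside the 10 genes, stayed below the minimum for testing, with 16, 11, 19 and 25 reads in WT myotubes and 1 to 9 reads in every other sample.

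Tnnt1 encodes the slow skeletal troponin T, which ties the complex to tropomyosin. Its normalized counts were 639, 639, 716 and 576 in WT myoblasts and 2067, 2223, 2892 and 2008 in WT myotubes. They were 10.5, 5.81, 9.54 and 6.67 in Fam134b KO myoblasts (12, 7, 11 and 8 reads) and 390.2, 719, 676 and 693 in Fam134b KO myotubes. Fam134b KO myotubes and WT myoblasts, neighbours in the order of means, overlapped. Tnnt2 encodes the cardiac troponin T, which embryonic and regenerating skeletal muscle also makes. It had 2828, 2604, 2981 and 2608 in WT myoblasts and 4091, 5847, 6434 and 4578 in WT myotubes. It had 229, 167, 243 and 258 in Fam134b KO myoblasts and 1352, 2253, 1905 and 1820.4 in Fam134b KO myotubes. Every Fam134b KO myotube sample lay below every WT myoblast sample, an order shared by no other troponin without overlap, and Tnnt2 was the troponin with the most reads in Fam134b KO myoblasts (201 to 309 per sample). Tnnt3, the fast skeletal troponin T, had 203, 176, 186 and 159 in WT myoblasts and 1507, 1671, 2786 and 1613 in WT myotubes, where replicate 3 stood above the others. It had 0.875, 0.83, 4.34 and 0.834 in Fam134b KO myoblasts, from 1, 1, 5 and 1 reads, and 283, 395, 609 and 529.5 in Fam134b KO myotubes. No pair of groups overlapped for Tnnt3, and the order was that of Tnnc1.

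The tropomyosins were present at all stages. Their counts are per gene and do not separate sarcomeric from cytoskeletal forms, here and in the ratios. Tpm1, the alpha gene, had 3394, 4298, 3892 and 3479 in WT myoblasts and 4366, 4946, 5216 and 4391 in WT myotubes. It had 2334, 2341, 2259.9 and 2222 in Fam134b KO myoblasts and 2604, 2878, 3107 and 3293 in Fam134b KO myotubes. No pair of groups overlapped, and the order was Fam134b KO myoblasts, Fam134b KO myotubes, WT myoblasts and WT myotubes. Tpm2, the beta gene, had 2619, 2368, 3122 and 2846 in WT myoblasts and 4924, 6349, 7504 and 5279 in WT myotubes. It had 3419, 2684, 3031 and 3273 in Fam134b KO myoblasts and 2203, 3213, 3127 and 2659.6 in Fam134b KO myotubes. WT myotubes lay above all other samples, and the other 3 groups overlapped with each other. Tpm4 encodes a short cytoskeletal tropomyosin of stress fibres. It had 603, 777, 729 and 710.3 in WT myoblasts and 395, 437, 331 and 423 in WT myotubes. It had 723, 862, 579.5 and 698 in Fam134b KO myoblasts and 464, 508, 444 and 379.7 in Fam134b KO myotubes. Myotubes of either genotype lay below myoblasts of either genotype, and at each stage the genotypes overlapped.

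**Figure D2:**
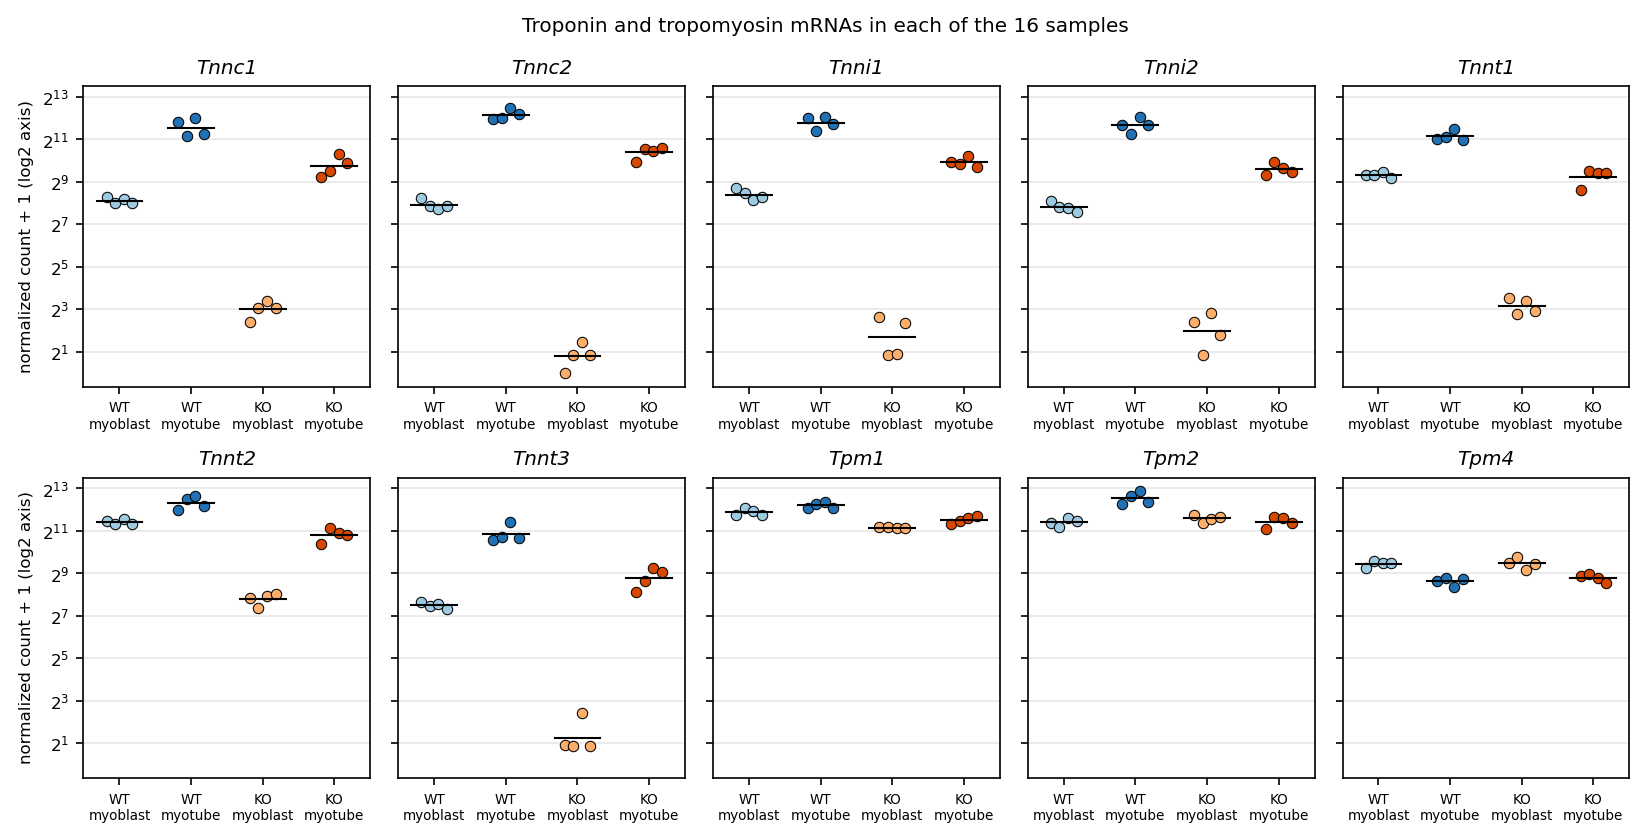
Normalized count plus 1 of each gene in the 16 samples, on a log2 axis, with points for replicates 1 to 4 from left to right in each group and lines for the means of the log2 values. The 6 troponins other than Tnnt2 drop to 12 reads or fewer in each Fam134b KO myoblast sample, Tnnt2 to 201 to 309 reads, and the tropomyosins stay between 331 and 7504 normalized counts in all samples.

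In WT cells, all 7 troponin mRNAs rose as myoblasts became myotubes. The log2 fold changes ran from 0.91 ± 0.19 (SE, adjusted p = 0.00143) for cardiac Tnnt2 to 4.23 ± 0.24 (SE, adjusted p = 4.72e-11) for fast Tnnc2. Tpm2 rose by 1.12 ± 0.18 (SE, adjusted p = 0.000133), and Tpm4 fell, with -0.83 ± 0.16 (SE, adjusted p = 0.000586). Of the 10 genes, 8 were called higher and 1 lower, where 23.0% of all 10767 genes tested were called (13.8% higher and 9.16% lower). The median log2 fold change was 3.40 over the troponins and -0.01 over all genes tested. The fast subunits Tnni2 (3.85 ± 0.29) and Tnnt3 (3.34 ± 0.30) and the slow subunits Tnnc1 (3.45 ± 0.24) and Tnni1 (3.40 ± 0.31) rose as well, with adjusted p from 1.07e-09 to 6.41e-08. The slow Tnnt1 rose less, by 1.83 ± 0.20 (SE, adjusted p = 1.33e-06). Tpm1 had 0.33 ± 0.15 (SE, adjusted p = 0.124), with a 95% interval of 0.01 to 0.65, and did not pass. The 2 groups did not overlap for any of the 10 genes, Tpm1 included, where 28.0% of all genes tested did not overlap (16.1% higher and 12.0% lower). Tpm1 passed with quantile normalization (0.44, adjusted p = 0.0265) and with sample weights (0.32, adjusted p = 0.0357).

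The ratios between paired isoform genes shifted in the same WT comparison. Each ratio is the log2 difference of 2 genes within a sample, so it does not depend on the scaling of that sample, and its change does not depend on gene length. The log2 ratio of slow Tnnt1 to fast Tnnt3 was 1.65, 1.85, 1.94 and 1.85 in WT myoblasts and 0.46, 0.41, 0.05 and 0.32 in WT myotubes, and that of cardiac Tnnt2 to Tnnt3 was 3.79, 3.88, 3.99 and 4.03 and 1.44, 1.81, 1.21 and 1.50. The samples of the 2 stages were well apart in both, and the means fell by 1.51 and 2.43. The ratio of Tnnc1 to Tnnc2 fell by 0.79, from 0.01, 0.12, 0.48 and 0.16 in WT myoblasts to -0.16, -0.84, -0.46 and -0.92. That of Tnni1 to Tnni2 fell by 0.45, from 0.61, 0.67, 0.33 and 0.72 to 0.30, 0.15, -0.01 and 0.08. In each of the 4 troponin pairs the fast gene gained on its slow or cardiac partner without overlap between stages. Among tropomyosins, the ratio of Tpm4 to Tpm2 fell by 1.95, from -2.12, -1.61, -2.10 and -2.00 to -3.64, -3.86, -4.50 and -3.64. That of Tpm1 to Tpm2 fell by 0.79, from 0.37, 0.86, 0.32 and 0.29 to -0.17, -0.36, -0.52 and -0.27. In the 2-sided exact permutation test each of the 6 ratios had p = 0.0286 (n = 4 per group), the smallest the design allows, and 0.0429 after adjustment over the 12 ratio tests. The ratios of Tnnt1 and Tnnt2 share Tnnt3, and both tropomyosin ratios share Tpm2, so the 6 are not independent.

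The wider thin filament moved in both directions in WT cells. Of 30 further thin filament genes, 25 could be tested, of which 11 were higher and 4 lower in myotubes, with a median log2 fold change of 0.11. The cardiac actin gene Actc1 rose by 6.36 (adjusted p = 4.80e-13), from 33.7 ± 8.18 to 2808 ± 409 (SD, n = 4), and the giant thin filament ruler Neb by 4.83 (adjusted p = 4.46e-08). The pointed-end capper Tmod1 rose by 4.81 (adjusted p = 2.39e-07), and Cap2, which acts on actin turnover, by 4.47 (adjusted p = 5.80e-06). Tpm3, a tropomyosin gene outside the 10 that shares sequence with Tpm4, fell by 0.70 (adjusted p = 0.0288), and the other 3 lower genes were Cnn1, Cnn2 and Tagln, which bind actin in smooth muscle and the cytoskeleton. Of slow fibre genes outside the family, 6 of 6 tested (9 listed) were higher with a median of 4.88, and of fast fibre genes 7 of 8 tested (11 listed) with a median of 3.95. Both lists include genes of the sarcomere and of calcium storage, such as Actn2, Myh7, Casq1 and Myh1.

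In Fam134b KO cells, the same 7 troponin mRNAs rose from far lower levels. Fast Tnnc2 went from 0 to 2 reads per myoblast sample to a mean normalized count of 1368 in myotubes, at least 521-fold higher when the myoblasts are set at the highest floor of 3 reads per library. The fitted log2 fold changes were 6.75 ± 0.24 for Tnnc1, 8.24 ± 0.31 for Tnni1, 7.62 ± 0.29 for Tnni2 and 7.50 ± 0.30 for Tnnt3, with adjusted p from 2.27e-15 to 2.32e-14. Over all alternatives they ranged from 6.16 to 6.98 (Tnnc1), 7.03 to 8.59 (Tnni1), 6.58 to 7.91 (Tnni2) and 6.07 to 7.95 (Tnnt3). The SE does not cover this dependence on the processing. Slow Tnnt1 rose by 6.08 ± 0.20 (SE, adjusted p = 1.08e-15) and cardiac Tnnt2 by 3.02 ± 0.19 (adjusted p = 5.24e-11). Of the 10 genes, 7 were called higher and 1 lower, where 33.4% of all genes were called (17.3% higher and 16.1% lower), and the groups did not overlap for 9 of the 10, against 27.4% of all genes (14.3% higher and 13.1% lower). The troponin median was 7.50, the fitted value of Tnnt3, against -0.02 over all genes. The bound of Tnnc2 lies above this median and so could not move it.

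No tropomyosin of Fam134b KO cells was called higher in myotubes. Tpm4 fell, with -0.67 ± 0.16 (SE, adjusted p = 0.00239). Tpm2 had -0.16 ± 0.18 (SE, adjusted p = 0.533), with a 95% interval of -0.53 to 0.22. Tpm1 had 0.37 ± 0.15 (SE, adjusted p = 0.0665) and passed with quantile normalization (0.38, adjusted p = 0.0399). Of the 25 further thin filament genes, 10 were higher and 4 lower (Tmod3, Cnn1, Cnn2 and Tagln) with a median of -0.01. The higher ones included Actc1 (from 0.853 ± 0.681 to 2068 ± 517, SD, n = 4), the skeletal actin gene Acta1 (from 10.0 ± 5.07 to 3459.9 ± 891), Neb (from 0.417 ± 0.834 to 167 ± 18.8) and the leiomodin gene Lmod3 (from 0.219 ± 0.437 to 105 ± 28.1). Tpm3 had -0.29 (adjusted p = 0.341). Slow fibre genes were higher in 5 of 6 and fast fibre genes in 7 of 8, with medians of 4.15 and 5.92.

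**Figure D3:**
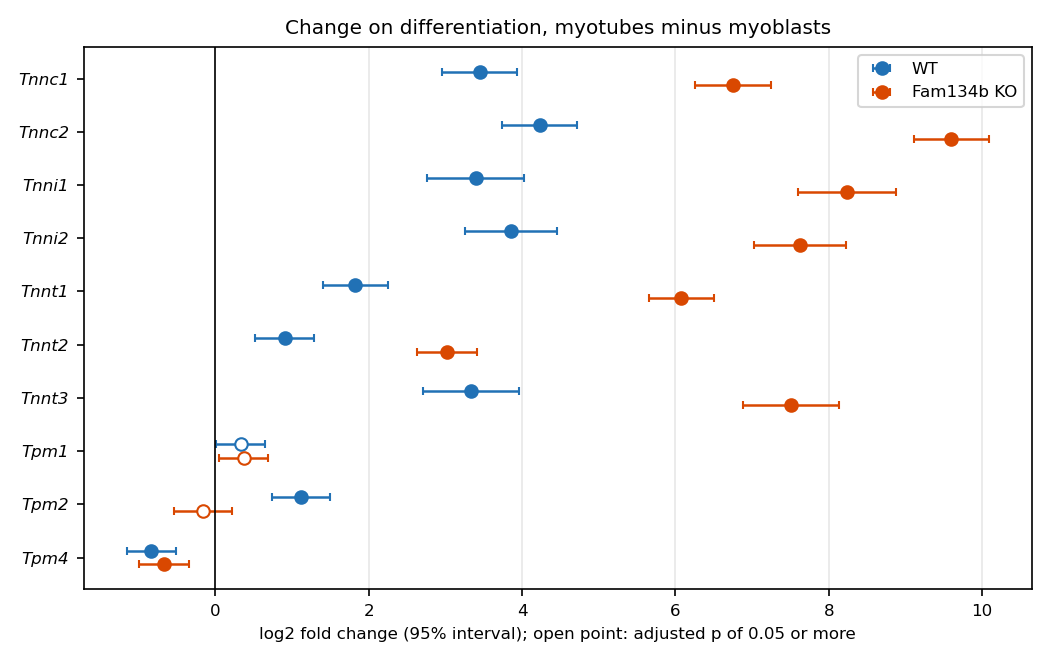
Log2 fold change from myoblasts to myotubes in WT (blue) and Fam134b KO (orange) with 95% intervals from the limma fit, filled where the adjusted p was under 0.05. All 7 troponins lie further to the right in Fam134b KO, where the myoblast levels rest on few reads, Tpm2 is at 1.12 in WT and -0.16 in Fam134b KO, and Tpm4 is below 0 in both.

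Fam134b KO myoblasts had less of all 7 troponin mRNAs than WT myoblasts. Fast Tnnc2, at or under 3 reads in every Fam134b KO sample, was at least 93.2-fold lower against a floor of 3 reads per library, and its fitted log2 difference was -7.13 ± 0.24 (SE, adjusted p = 1.92e-15). The other low troponins are given as a percent of the WT mean, with the exact Poisson 95% interval of the summed Fam134b KO reads. Tnni1 was at 0.816% (0.433% to 1.39%, 13 reads) and Tnnt3 at 0.950% (0.406% to 1.85%, 8 reads, with 3 reads or fewer in 3 of the 4 samples). Tnnt1 was at 1.27% (0.891% to 1.73%) and Tnni2 at 1.52% (0.859% to 2.44%), and Tnnc1 was 38.4-fold lower. The intervals of Tnni1, Tnnt3, Tnnt1 and Tnni2 overlapped. Cardiac Tnnt2 kept 8.14% and fell by 3.63 ± 0.19 (SE, adjusted p = 4.29e-12). The fitted differences of the other 5 troponins lay between -6.70 ± 0.31 for Tnni1 and -5.12 ± 0.24 for Tnnc1, with adjusted p from 1.92e-15 to 2.11e-12. The troponin median was -6.17, the fitted value of Tnnt1, against -0.01 over all genes. The bound of Tnnc2 lies below this median and so could not move it.

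Of the 3 tropomyosins, only Tpm1 passed the test between the myoblasts, with -0.71 ± 0.15 (SE, adjusted p = 0.00202) and 60.8% of the WT mean. Tpm2 had 0.18 ± 0.18 (SE, adjusted p = 0.578), with a 95% interval of -0.19 to 0.56, and Tpm4 had 0.01 ± 0.16 (SE, adjusted p = 0.971), with an interval of -0.31 to 0.34. Of the 10 genes, 8 were called lower and none higher, where 15.8% of all genes were called (7.26% higher and 8.50% lower), and 8 did not overlap, against 26.8% of all genes (12.8% higher and 14.0% lower). The size of the troponin differences depends on the pseudocount, since the Fam134b KO levels rest on 0 to 12 reads per sample for all but Tnnt2. With a pseudocount of 5 in place of 1, Tnnc2 had -5.41 and Tnni1 -5.50, so that their order turned, and the calls were kept.

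Of the 25 further thin filament genes, 10 were lower and 2 (Lmod1 and Cald1) higher in Fam134b KO myoblasts, with a median of -0.54. Klhl40, a stabiliser of thin filament proteins, went from 90.5 ± 9.22 in WT to 1.30 ± 1.13 (SD, n = 4, adjusted p = 6.41e-12), Acta1 from 370.0 ± 91.6 to 10.0 ± 5.07 (adjusted p = 1.28e-11), Actc1 from 33.7 ± 8.18 to 0.853 ± 0.681 (adjusted p = 5.40e-11) and Lmod3 from 19.8 ± 7.35 to 0.219 ± 0.437 (adjusted p = 1.38e-08). Tpm3 had -0.54 (adjusted p = 0.116). Slow fibre genes were lower in 2 of 6 (Myh7 and Casq2) and fast fibre genes in 5 of 8 (Myh4, Mylpf, Myl1, Atp2a1 and Actn3), with medians of -1.08 and -2.20. Mean normalized counts in WT myoblasts were only 0.231 for Actn2, 0.491 for Myh7b and 2.75 for Myoz2 (slow), and 2.07 for Myh1 and 1.38 for Casq1 (fast). Such levels leave little room for a fall, so the lists cannot be compared by these counts and medians. Promoter factors are here those that bind muscle promoter elements or act with such factors. Of 15 tested (17 listed), 8 were lower and none higher, with a median of -0.60. Myod1, the factor MyoD that binds E-boxes, went from 282 ± 63.7 to 9.62 ± 4.70 (adjusted p = 9.54e-12) and Myog from 114 ± 24.3 to 0 reads in all 4 samples (adjusted p = 7.62e-16). Mef2c went from 9.30 ± 5.67 to 0.425 ± 0.491 (adjusted p = 3.41e-05) and Mef2a from 307 ± 26.4 to 112 ± 12.0 (adjusted p = 1.51e-05).

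In myotubes, all 7 troponins were again lower in Fam134b KO, by smaller log2 differences. The differences ran from -2.07 ± 0.30 for fast Tnnt3 to -1.51 ± 0.19 for cardiac Tnnt2, with adjusted p from 1.19e-06 to 0.000157. Their means were 23.7% (Tnni2), 24.0% (Tnnt3), 27.0% (Tnnt1), 27.3% (Tnni1), 28.6% (Tnnc1), 29.6% (Tnnc2) and 35.0% (Tnnt2) of WT. Tpm2 was lower with -1.10 ± 0.18 (SE, adjusted p = 0.000164) and Tpm1 with -0.67 ± 0.15 (SE, adjusted p = 0.00296), at 46.6% and 62.8% of WT. Tpm4 had 0.18 ± 0.16 (SE, adjusted p = 0.438), with a 95% interval of -0.14 to 0.50, and did not pass. Of the 10 genes, 9 were called lower and none higher, where 23.4% of all genes were called (9.74% higher and 13.7% lower), and 9 did not overlap, against 19.4% of all genes (8.52% higher and 10.8% lower). The troponin median was -1.86, against -0.07 over all genes. Without both shallow Fam134b KO myotube libraries, an alternative chosen after seeing the data, the count of calls was again 9.

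**Figure D4:**
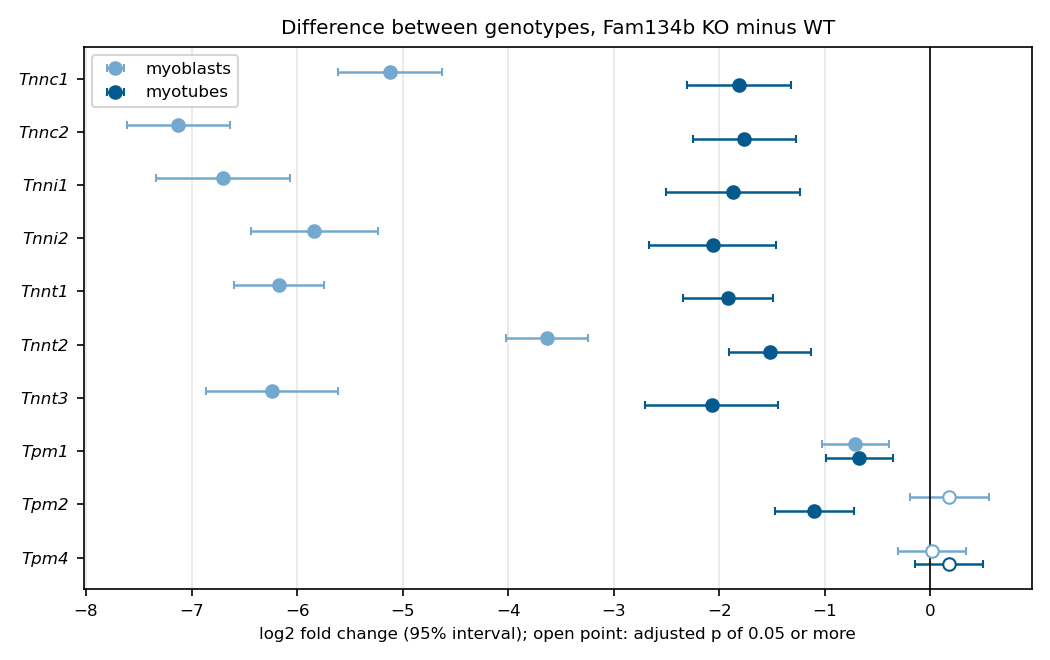
Log2 difference between Fam134b KO and WT in myoblasts (light) and myotubes (dark) with 95% intervals from the limma fit, filled where the adjusted p was under 0.05. The troponins spread from -7.13 to -3.63 in myoblasts, where Tnnc2 rests on 0 to 2 reads per Fam134b KO sample, and lie between -2.07 and -1.51 in myotubes, and Tpm4 is near 0 at both stages.

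The balance between slow and fast troponins in myotubes was not found to differ between the genotypes. The log2 ratio of Tnnc1 to Tnnc2 was -0.70, -1.05, -0.15 and -0.70 in Fam134b KO myotubes, and the difference of the means from WT was -0.05 (p = 0.886 in the exact permutation test, n = 4 per group). Tnni1 to Tnni2 was 0.61, -0.11, 0.60 and 0.20, with a difference of 0.20 (exact p = 0.314). Tnnt1 to Tnnt3 was 0.46, 0.86, 0.15 and 0.39, with a difference of 0.16 (exact p = 0.400). All 3 overlapped with WT myotubes, and a p above the threshold does not show that the ratios were alike. Tnnt2 to Tnnt3 was 2.25, 2.51, 1.64 and 1.78, with a difference of 0.56 that missed the threshold (exact p = 0.0857, 0.114 adjusted over 12 tests).

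The tropomyosin ratios did differ. Tpm4 to Tpm2 was -2.25, -2.66, -2.81 and -2.81 in Fam134b KO myotubes, above all WT myotube samples, with a difference of 1.28. Tpm1 to Tpm2 was 0.24, -0.16, -0.01 and 0.31, also above all WT myotube samples, with a difference of 0.43. Both had p = 0.0286 in the exact permutation test (n = 4 per group), 0.0429 after adjustment over 12 tests. Both divide by Tpm2, which was itself lower in Fam134b KO myotubes, so they are not independent of each other. In Fam134b KO myoblasts Tpm4 to Tpm2 was -2.24, -1.64, -2.38 and -2.23 and Tpm1 to Tpm2 -0.55, -0.20, -0.42 and -0.56, given as values only. Troponin ratios are not given for Fam134b KO myoblasts, where at least 1 gene of each pair had 3 reads or fewer in some sample.

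**Figure D5:**
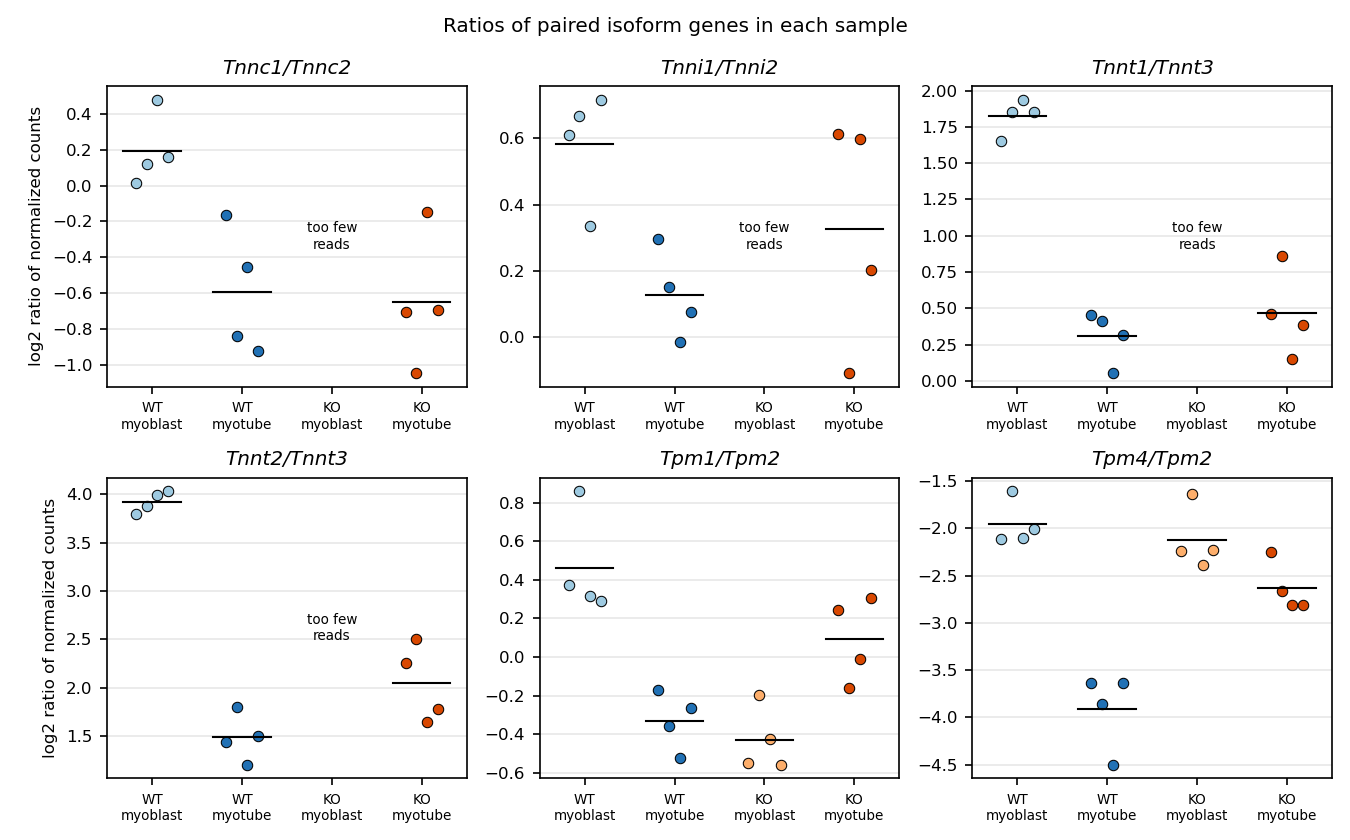
Log2 ratio of the normalized counts of paired genes in each sample, with a point per sample, lines for group means and a separate axis range in each panel. In WT every ratio is lower in myotubes than in myoblasts without overlap, and in Fam134b KO myotubes the 2 tropomyosin ratios lie above those of WT myotubes while the 4 troponin ratios overlap with them.

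Of the wider thin filament, 7 of 25 genes were lower and 1 (Cald1) higher in Fam134b KO myotubes, with a median of -0.46. Cap2 (-3.35, adjusted p = 0.000183), Nrap, a scaffold of forming myofibrils (-1.51, adjusted p = 0.0140), Neb (-1.46, adjusted p = 0.0160) and Klhl41, a stabiliser of nebulin (-1.26, adjusted p = 0.0107), were lower. The actins of the sarcomere did not pass, with -0.79 for Acta1 (adjusted p = 0.0521) and -0.46 for Actc1 (adjusted p = 0.208), both named after their values were seen. Tpm3 had -0.12 (adjusted p = 0.733). Slow fibre genes were lower in 5 of 6 and fast fibre genes in 7 of 8, with medians of -1.97 and -1.49. Of the 15 promoter factors, 6 were lower and 2 (Mkl1 and Mkl2) higher. The lower ones included Mef2c (-1.98, adjusted p = 0.00130), Tead4, a TEAD factor (-1.96, adjusted p = 9.25e-05), Myod1 (-1.43, adjusted p = 0.000497) and Six4 (-1.11, adjusted p = 0.00592). Myog had -0.51 (adjusted p = 0.0892).

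The change on differentiation differed between the genotypes for 8 of the 10 genes. The interaction, the log2 change in Fam134b KO minus that in WT, was positive for all 7 troponins. For 6 of them it ran from 2.12 ± 0.26 for Tnnt2 (SE, adjusted p = 2.80e-05) to 4.84 ± 0.43 for Tnni1 (adjusted p = 2.72e-07), with Tnnc1 at 3.30, Tnni2 at 3.77, Tnnt3 at 4.16 and Tnnt1 at 4.25. For Tnnc2 the fitted value was 5.36 ± 0.33 (adjusted p = 5.71e-10), which rests on 0 to 2 reads per Fam134b KO myoblast sample, and the floor of 3 reads gives a difference of at least 4.79. With a pseudocount of 5 the interaction was 3.65 for both Tnnc2 and Tnni1. A larger log2 rise in Fam134b KO stands beside a lower end point, since every troponin was lower in Fam134b KO than in WT myotubes. Tpm2 moved the other way, with -1.28 ± 0.26 (SE, adjusted p = 0.00532). Tpm1 had 0.04 ± 0.22 (SE, adjusted p = 0.955) with a 95% interval of -0.41 to 0.49, and Tpm4 had 0.17 ± 0.22 (SE, adjusted p = 0.753) with an interval of -0.29 to 0.62. With 7 called higher and 1 lower, the count stands beside 3.45% of all genes called (1.97% higher and 1.48% lower). Of the 25 further thin filament genes 6 were higher and none lower (Klhl40, Acta1, Actc1 and Lmod3 by the most). Among the promoter factors 3 were higher (Myog, Myod1 and Mef2a) and Tead4 lower (-1.86, adjusted p = 0.0172 in the limma fit). Of fast fibre genes 3 of 8 were higher (Mylpf, Myl1 and Atp2a1), and of slow fibre genes Casq2 was higher and Actn2 lower.

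Across the 16 samples the troponins were correlated with each other more closely than with the tropomyosins, although the order of the groups differed among them. Pearson's r of the log2 values was 0.938 to 0.996 over the 21 troponin pairs, with a median of 0.983. Against the troponins it was 0.797 to 0.913 for Tpm1, 0.421 to 0.482 for Tpm2 and -0.782 to -0.593 for Tpm4. The points share 4 groups and their library factors, and the values describe these samples only. By the same measure the genes outside the 10 closest to Tnnc2 were Tmem8c (0.998) and Mylpf (0.996), and Gm7325 was among the nearest 3 of Tnnc1, Tnnc2, Tnni1, Tnni2 and Tnnt3 with 0.991 to 0.995. Tmem8c and Gm7325 are older symbols of myomaker and myomixer, which act in myoblast fusion, and Mylpf is a fast myosin light chain. Tnni1 was closest to Mb, myoglobin (0.997), Tnni2 to Ckm, the muscle creatine kinase (0.995), Tnnt1 to Baiap2l1 (0.989), Tnnt2 to Pdlim3, a Z-disc protein (0.984), and Tnnt3 to Gm7325 (0.993). For Tpm1 the nearest gene was Cnot6l (0.977), for Tpm2 Tead4 (0.870) and for Tpm4 Esd (0.931).

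Within groups, single libraries stood high or low for many of the 10 genes at once. WT myotube replicate 3 was the highest of its group for 9 genes and the lowest for Tpm4. Fam134b KO myotube replicate 1 was the lowest of its group for 8 genes. The count of calls was the same in each of the 5 comparisons when either library was left out.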

How the data were processed

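RNA of 16 C2C12 samples was measured by digital mRNA sequencing with single-end reads. Per the labels, the authors' processing notes name bcl2fastq, STAR 2.6.0a, HTSeq and build mm10 (GRCm38), and the tool behind the normalization is not given in the sources used here. The deposited values are log2 of the normalized count plus 1, in 1 table with a column per sample. All of them gave back whole reads within a tolerance of 0.01 of a read, from which reads on genes (1484750 to 3287461 per sample) and levels were computed. Poisson intervals and the floor of 3 reads cover counting error only.

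Groups were taken from the titles. The 10767 of 31053 rows that reached 10 normalized counts in 4 or more samples were fitted in 1 model of 4 group means with limma 3.58.1 in R 4.3.3 (lmFit, contrasts.fit and eBayes with trend), in 5 comparisons. Calls had a Benjamini-Hochberg adjusted p under 0.05 over all genes tested. A value after ± is an SE for a log2 difference and an SD for a level or share. Ratios of 2 genes were compared by 2-sided exact permutation tests with scipy 1.17.1, adjusted over 12 tests. The script was tested on simulated data.

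The 10 genes and the lists were chosen with earlier results of these data known. For 3 listed genes (Mymk, Mymx and Mef2b) the row was found by its Ensembl identifier under another symbol. All 10 genes were named in each comparison, with at most 4 genes of each list (those called with the largest changes) besides Tnni3 and Tpm3, and the 3 genes nearest in pattern. Genes behind a count of 5 or fewer were also named, after their values were seen. Replicate numbers were not treated as pairs (mean correlation of deviations 0.0330 over 24 same-number pairs and -0.0108 over 72 others). Alternatives were other pseudocounts, filters, scalings, weights, thresholds, models and voom on the reads, a replicate block, and each sample left out. Among the scalings, median-ratio scaling of the recovered reads returned the fits of the deposited values, so it was not a different scaling.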

Additional observations from a re-analysis of the deposited data

Results flagged for a closer look

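Of 60 groups of 4 values checked for a sample far from the rest (the levels of the 10 genes, and the ratios of genes that had more than 3 reads in every sample of the group), 4 held one past Dixon's 95% critical value, where chance gives about 1 in 20 groups. Slow Tnnt1 was low in Fam134b KO myotube replicate 1, with a normalized count of 390 against 676 to 719 in the other samples of the group. Fast Tnnt3 was high in WT myotube replicate 3, with 2786 against 1507 to 1671. In Fam134b KO myoblasts, Tnnt3 was high in replicate 3, with 4.34 against 0.830 to 0.875, which is 5 reads against 1. The log2 ratio of Tpm1 to Tpm2 was high in WT myoblast replicate 2, with 0.86 against 0.29 to 0.37.

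The log2 change on differentiation differed between Fam134b KO and WT cells, by the limma interaction term, for 8 genes. The Fam134b KO change exceeded the WT change by 3.30 for Tnnc1, 4.84 for Tnni1, 3.77 for Tnni2, 4.25 for Tnnt1, 2.12 for Tnnt2 and 4.16 for Tnnt3. For Tnnc2 the fitted value was 5.36, resting on 0 to 2 reads per Fam134b KO myoblast sample, and the floor of 3 reads gives at least 4.79. For Tpm2 the difference was -1.28.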

How the results depend on the processing

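The number of the 10 genes called stayed within 1.5 times the reported count in all 149 alternatives over the 5 comparisons. Of 1490 alternative values for single genes, 1474 kept their direction and their side of the threshold. Many of these settings could not move a fold change, so the count overstates how far the values were tried. Filters, thresholds, the replicate block and leaving out a sample of a group not compared keep the fold change. Median-ratio scaling returned the values of the reported fit. A minimum absolute log2 fold change of 1 removed the calls of Tnnt2 and Tpm4 in WT differentiation, Tpm4 in Fam134b KO differentiation and Tpm1 in both comparisons of genotypes. The direction of 2 values that were not called turned. Tpm4 between myoblasts was -0.027 with sample weights, -0.059 without WT replicate 1 and -0.081 without Fam134b KO replicate 2, and ranged up to 0.11 with other samples left out. The Tpm1 interaction was -0.019 with scaling by total count, -0.059 with quantile normalization, -0.026 without WT myoblast replicate 2, -0.012 without Fam134b KO myotube replicate 4 and -0.017 without both shallow libraries, the last chosen after seeing the data. The causes were not tested.

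With the replicate block, the ratio differences kept their values but could not pass, since 4 pairs allow no p below 0.125. They were -0.79 (Tnnc1 to Tnnc2), -0.45 (Tnni1 to Tnni2), -1.51 (Tnnt1 to Tnnt3), -2.43 (Tnnt2 to Tnnt3), -0.79 (Tpm1 to Tpm2) and -1.95 (Tpm4 to Tpm2) in WT differentiation, and 0.43 (Tpm1 to Tpm2) and 1.28 (Tpm4 to Tpm2) between myotubes. The block changed no call of a single gene. Leaving out 1 sample, which allows no p below 0.05 either, gave -0.93 to -0.68, -0.54 to -0.41, -1.57 to -1.43, -2.54 to -2.34, -0.85 to -0.66 and -2.04 to -1.76 in the same order in WT, and 0.36 to 0.51 and 1.08 to 1.37 between myotubes. Between myotubes, Tnnc1 to Tnnc2 ranged from -0.22 to 0.090, with 0.090 without WT replicate 1 and 0.08 without Fam134b KO replicate 2, Tnni1 to Tnni2 from 0.10 to 0.34, Tnnt1 to Tnnt3 from 0.02 to 0.26 and Tnnt2 to Tnnt3 from 0.40 to 0.69.

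Fitted folds against Fam134b KO myoblasts rest on few reads. With pseudocounts of 0.5 and 5, Tnnc2 moved to 10.15 and 7.86 on Fam134b KO differentiation, to -7.68 and -5.41 between myoblasts and to 5.91 and 3.65 in the interaction, with its calls kept.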
